A study of Mus musculus with 2 samples.

Results

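Mir221 and Mir222 are neighbouring microRNA (miRNA) hairpins of the mouse X chromosome, and their small RNA reads were followed in J1 mESCs with and without a block of MEK/ERK signaling. J1 mESCs are embryonic stem cells of the mouse held as an established line. They were cultured without feeders on gelatin, in knockout serum replacement medium to which LIF, a self-renewal cytokine, was added at 1000 U/mL. They received either DMSO alone (control) or 1 μM PD0325901 (PD), an inhibitor of the kinase MEK, for 24 h, and the paper asks which miRNAs are tied to ERK1/2 signaling. RNA from 3 independent experiments was combined before each library was made, so the 2 groups hold 1 small RNA library each. No difference below has a replicate check within these libraries. A sequence read from a library is called a tag, and a tag was a member when it matched either hairpin perfectly from its first to its last base. This gave 37 tags with 3072 reads, out of 1695245 distinct tags with 39815153 reads in the 2 files.

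A miRNA is cut from a hairpin in its primary transcript, first by Drosha in the nucleus and then by Dicer in the cytoplasm. Either arm of the hairpin, 5p or 3p, can be loaded into an Argonaute protein, and the bases near the 5′ end, the seed, pair with target mRNAs. miR-221 and miR-222 are processed from a shared primary transcript, and ERK and AP-1 have been linked to its transcription in other cell types. Their best known targets are Cdkn1b, which encodes the cell cycle inhibitor p27, and Kit, a receptor tyrosine kinase.

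Both hairpins lie on the minus strand of GRCm38, Mir221 at chrX:19146294-19146388 and Mir222 at chrX:19146893-19146971, with 504 bp between them. In GENCODE M21, 0 other annotated genes overlapped either hairpin, and the nearest gene on the upstream side, the noncoding Gm14636 of the same strand, had its nearer end 10009 bp from Mir222. The hairpins are shown to place the arms. Capitals mark the most frequent tag of the 5p arm and then that of the 3p arm.
Mir221: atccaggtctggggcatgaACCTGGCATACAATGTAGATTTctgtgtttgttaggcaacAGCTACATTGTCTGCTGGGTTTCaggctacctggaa
Mir222: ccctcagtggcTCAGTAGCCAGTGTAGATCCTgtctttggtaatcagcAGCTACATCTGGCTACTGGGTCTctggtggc

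The annotated mature miRNAs of RefSeq (build GRCm38.p6) show what the pair shares. Capitals mark bases 2 to 8, counted from the 5′ end. miR-1928 is included as the only other mature miRNA with the same bases there among the 1738 in the table.
miR-221-3p: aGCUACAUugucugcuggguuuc
miR-222-3p: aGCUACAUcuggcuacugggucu
miR-1928: aGCUACAUugccagcuc
miR-221-5p: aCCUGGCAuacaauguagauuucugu
miR-221-3p and miR-222-3p were identical over their first 8 bases and at 11 of 23 positions in all, without gaps. The 5p arm of Mir221 has another seed. The hairpin of miR-1928 had 0 reads in both libraries. Its annotated mature form of 17 nt is shorter than the shortest tag in the files, 18 nt, so a tag of that length could not have been seen.

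All 37 tags matched a single miRNA hairpin and none matched any other transcript of GENCODE M21. Every tag lay on an arm. No read came from a loop, where pieces under 18 nt could not have been seen. The reads of the pair could therefore be told apart in spite of the shared seed.

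Levels are given as RPM, reads scaled to a common number of clean reads. At depths of 18870345 clean reads (control) and 20944808 (PD), a single read is worth 0.053 and 0.0477 RPM, and 3 reads, taken as the floor of detection, 0.159 and 0.143 RPM. The share of reads on miRNA hairpins was 11.6% in the control and 10.1% in the PD library, and that of clean reads of 20 to 24 nt was 63.0% and 52.0%. The libraries thus differed in composition, and folds over all clean reads are given below beside folds over other denominators. miRNAs of the miR-290-295 cluster, which mark mESCs, were abundant in both libraries, miR-293-3p for example at 11549 and 9620 RPM.

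miR-222-3p fell the most of the pair. It had 1116 reads (59.1 RPM, 95% Poisson interval 55.7 to 62.7) in the control and 516 reads (24.6 RPM, 22.6 to 26.9) in the PD library. The intervals of the 2 libraries did not overlap. The fold change, PD over control, was 0.417 (95% Clopper-Pearson interval 0.375 to 0.463), and the exact binomial test of the reads gave an adjusted p of 2.92e-64 over 516 detected miRNAs. The test and the intervals cover the sampling of reads and compare the 2 libraries, not the treatments. In RNA from whole cultures, fewer cells that express a miRNA and less of it per cell cannot be told apart.

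miR-221-3p fell less. It had 788 reads (41.8 RPM, interval 38.9 to 44.8) in the control and 588 reads (28.1 RPM, 25.9 to 30.4) in the PD library, and here too the intervals did not overlap. By the exact binomial test its fold of 0.672 (95% interval 0.603 to 0.749) had an adjusted p of 1.62e-12. The control exceeded the PD library 1.49 times, which is just short of the 1.5-fold criterion of the study, so that miR-221-3p was not among the miRNAs called by that criterion. A level below the control beyond the sampling of reads was common. In the exact binomial test, 35.9% of all 516 detected miRNAs were below it at an adjusted p under 0.05.

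The 5p arms were rare. miR-221-5p had 36 reads (1.91 RPM, interval 1.34 to 2.64) in the control and 20 reads (0.955 RPM, 0.583 to 1.47) in the PD library, and these intervals overlapped. By the exact binomial test its fold of 0.501 (0.275 to 0.888) had an adjusted p of 0.0366. The arm passed the 1.5-fold criterion on few reads, and the adjusted p of the exact binomial test was 0.101 with miRNA reads as denominator. The 5p arm of Mir222 had 4 reads in each library, or 0.212 and 0.191 RPM, below the 1 RPM set for detection. Its fold change of 0.901 had an interval of 0.168 to 4.84, so that neither a fall like that of the 3p arm nor a rise could be seen at this depth.

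**Figure D1:**
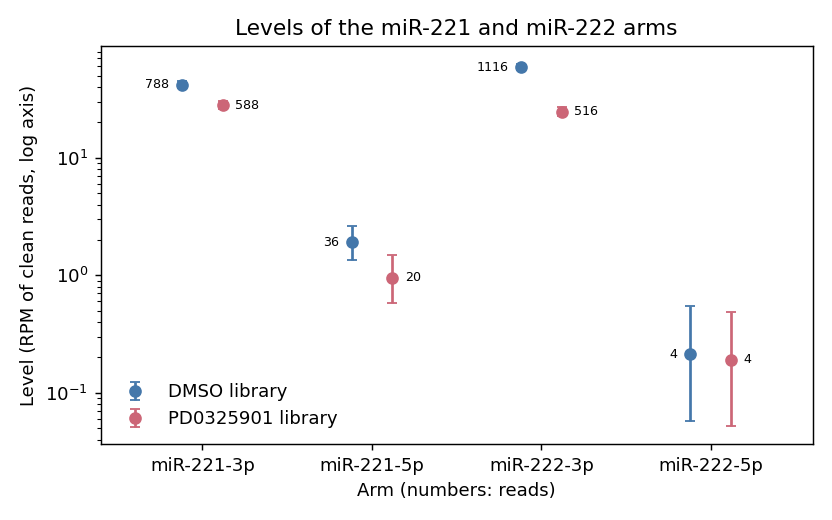
Level of each arm (RPM, log axis) in the DMSO and PD0325901 libraries, with 95% Poisson intervals of the read counts and the reads written beside each point. Both 3p arms lay lower in the PD library, from 41.8 to 28.1 RPM for miR-221-3p and from 59.1 to 24.6 RPM for miR-222-3p, while the intervals of both 5p arms overlapped.

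Of the 4 arms, 3 were detected and 2 of these, miR-222-3p and miR-221-5p, were at least 1.5-fold below the control. Among all 516 detected miRNAs, 70 met this criterion, a background of 13.6%. A fall of any size was the common case, with 67.4% of detected miRNAs below the control and a median log2 fold change of -0.17 (quartiles -0.41 and 0.06). On the same scale miR-222-3p stood at -1.26 and miR-221-3p at -0.57, and all 3 detected arms lay below the lower quartile. Ordered from the lowest fold, miR-222-3p ranked 9, miR-221-5p 17 and miR-221-3p 74 of the 516. Of the 269 miRNAs that reached 10 RPM in a library, miR-222-3p ranked 3 and miR-221-3p 30. A change of 2-fold or more was rarer, at 3.1% of the detected miRNAs below and 2.33% above the control, and miR-222-3p was the single arm of the pair to show it.

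**Figure D2:**
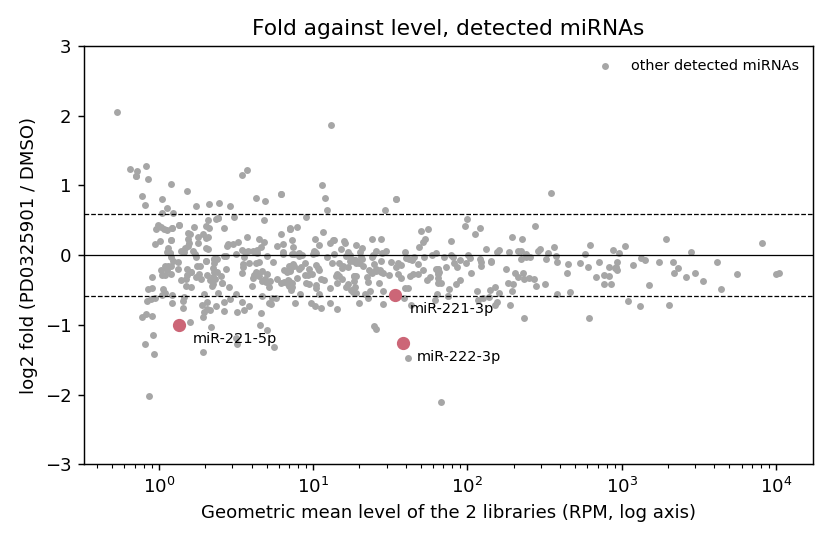
Log2 fold change of each of the 516 detected miRNAs against its geometric mean level in the 2 libraries (RPM, log axis), with dashed lines at 1.5-fold either way and the 3 detected arms of the pair in colour. miR-222-3p (-1.26) and miR-221-5p lie below the lower dashed line and miR-221-3p (-0.57) lies just above it.

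The folds of the 3p arms differed from each other beyond the sampling of reads. In the control, miR-222-3p had 1.42 times the reads of miR-221-3p, and in the PD library 0.878 times, so that the order of the 2 levels was turned. miR-222-3p took 58.6% of the reads of both 3p arms in the control (95% Wilson interval 56.4 to 60.8) and 46.7% in the PD library (43.8 to 49.7). The ratio of the 2 folds was 0.62 (95% interval 0.532 to 0.721; Fisher's exact test, 2-sided, p = 3.54e-10, adjusted p = 2.48e-09 over 7 comparisons of reads). This ratio needs no denominator, since both counts come from the same library. It depended on tag length: over tags of 23 nt or more it was 0.755 (0.629 to 0.906), and over tags of 24 nt or more, which are few in miR-221-3p, it was 1.08 (0.473 to 2.53), a choice of tags made after the lengths were seen. Reads of different miRNAs can be captured with different efficiency, so the order within a library is that of the reads, not of the molecules.

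Arm usage within a hairpin could not be shown to differ. In Mir221 the 3p arm had 21.9 reads for each 5p read in the control and 29.4 in the PD library, and the 5p share was 4.37% (95% Wilson interval 3.17 to 5.99) and 3.29% (2.14 to 5.03). The odds ratio was 0.745 with an interval of 0.404 to 1.34 (Fisher's exact test, p = 0.336, adjusted p = 0.588). In Mir222 the 5p share was 0.357% and 0.769%, from 4 reads each. The odds ratio of 2.16 had an interval of 0.401 to 11.7 (Fisher's exact test, p = 0.273, adjusted p = 0.588). Both hairpins thus gave mostly 3p reads in both libraries.

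The reads of each 3p arm began almost always at the same base, which fixes the seed. For miR-221-3p, 783 of 788 control reads and 584 of 588 PD reads started at the first base of the annotated miRNA, and for miR-222-3p 1112 of 1116 and 514 of 516 did. The shares were 99.4% and 99.3% for miR-221-3p and 99.6% in both libraries for miR-222-3p, with no difference detected (Fisher's exact test, p = 1 for each). The seed bases printed above were therefore those of nearly all reads, and the few tags with another start, at most 5 reads in a library, had a shifted seed.

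The 3′ ends varied more, and differently in miR-221-3p and miR-222-3p. The 3 most frequent tags of each 3p arm show this, with capitals again at bases 2 to 8 and the lengths 23, 22 and 24 nt in this order.
miR-221-3p, 23 nt: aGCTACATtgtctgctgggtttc
miR-221-3p, 22 nt: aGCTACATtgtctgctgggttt
miR-221-3p, 24 nt: aGCTACATtgtctgctgggtttca
miR-222-3p, 23 nt: aGCTACATctggctactgggtct
miR-222-3p, 22 nt: aGCTACATctggctactgggtc
miR-222-3p, 24 nt: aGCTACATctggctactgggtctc
For miR-221-3p these tags had 594, 164 and 17 reads in the control and 443, 120 and 12 in the PD library. Their folds of 0.672, 0.659 and 0.636 were close to each other. For miR-222-3p they had 485, 332 and 126 reads in the control and 235, 114 and 111 in the PD library. Here the folds spread from 0.309 (95% interval 0.248 to 0.384) at 22 nt through 0.437 (0.372 to 0.511) at 23 nt to 0.794 (0.609 to 1.03) at 24 nt. The 24 nt tag went from the third place, far behind the 22 nt tag, to nearly the same count.

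**Figure D3:**
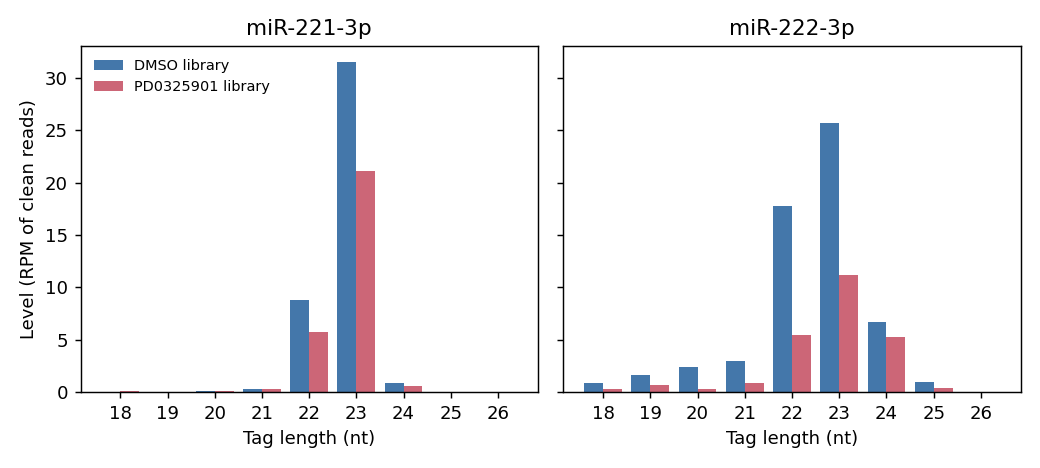
Level (RPM of clean reads) of miR-221-3p and miR-222-3p by tag length in the DMSO and PD0325901 libraries. miR-221-3p was mostly 23 nt in both, whereas the bars of miR-222-3p spread from 18 to 25 nt, with a wide gap between the libraries at 22 nt (17.8 and 5.44 RPM) and, in proportion, the smallest at 24 nt (6.68 and 5.30 RPM).

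The tags of the rare 5p arms are shown for their starts, again the 3 most frequent of each and with bases 2 to 8 in capitals.
miR-221-5p, 22 nt: aCCTGGCAtacaatgtagattt
miR-221-5p, 24 nt: aCCTGGCAtacaatgtagatttct
miR-221-5p, 23 nt: aCCTGGCAtacaatgtagatttc
Mir222 5p arm, 21 nt: tCAGTAGCcagtgtagatcct
Mir222 5p arm, 21 nt: cTCAGTAGccagtgtagatcc
Mir222 5p arm, 22 nt: cTCAGTAGccagtgtagatcct
For miR-221-5p they had 15, 13 and 3 reads in the control and 6, 4 and 5 in the PD library. The annotated form of 26 nt had 3 and 2 reads, so most reads of this arm ended before the annotated 3′ end. Each tag of the Mir222 5p arm had at most 2 reads in all, and its tags began at 3 different bases of the hairpin (9, 11 and 12).

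The shorter tags of miR-222-3p fell too. Those of 18 to 21 nt had 151 reads in the control and 47 in the PD library, a fold of 0.280 (95% interval 0.198 to 0.391). The lowest single fold was that of the 20 nt tag, with 46 and 7 reads and a fold of 0.137 (0.0522 to 0.306). The 25 nt tag had 19 and 9 reads and a fold of 0.427 (0.170 to 0.99), below that of the 24 nt tag, so the folds did not rise with every added base. Tags of 24 nt or more made up 13.0% of the miR-222-3p reads in the control (95% Wilson interval 11.1 to 15.1) and 23.3% in the PD library (19.8 to 27.1). This cut was chosen after the lengths were seen. The odds ratio was 2.03 (1.54 to 2.68; Fisher's exact test, p = 3.68e-07, adjusted p = 1.29e-06). For miR-221-3p the same shares were 2.16% and 2.21%, with an odds ratio of 1.03 (0.454 to 2.26; Fisher's exact test, p = 1).

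The reads of other miRNAs also differed by length. All other reads on miRNA hairpins had a fold of 0.685 at 18 to 21 nt, 0.895 at 22 nt, 0.962 at 23 nt and 0.980 at 24 nt or more. The mean tag length of miR-222-3p was 22.4 nt in the control (SD over reads 1.25) and 22.7 nt in the PD library (SD 1.22), a difference of 0.305 nt. Of 311 detected miRNAs with at least 100 reads in each library, 258 had a longer mean in the PD library, the median difference was 0.0742 nt, and 14.8% were longer by 0.3 nt or more. The shift of miR-222-3p was exceeded by 44 of the 311. The mean of miR-221-3p was 22.8 nt in both libraries, with a difference of -0.0101 nt. The part that this change over all miRNAs has in the values of miR-222-3p was not tested.

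Compared length by length, the fold of miR-222-3p was 0.409 times that of all other miRNA reads at 18 to 21 nt, 0.342 times at 22 nt, 0.454 times at 23 nt and 0.761 times (95% interval 0.598 to 0.970) at 24 nt or more, where the 24 nt tag alone had a fold whose interval included 1. If each length had moved like the other miRNA reads of that length, 1111 miR-222-3p reads would have stood in the PD library in place of 516, a ratio of 0.465. The same ratio was 0.712 for miR-221-3p and 0.526 for miR-221-5p. These ratios were computed after the lengths had been seen, and against pooled reads in which abundant miRNAs weigh most.

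**Figure D4:**
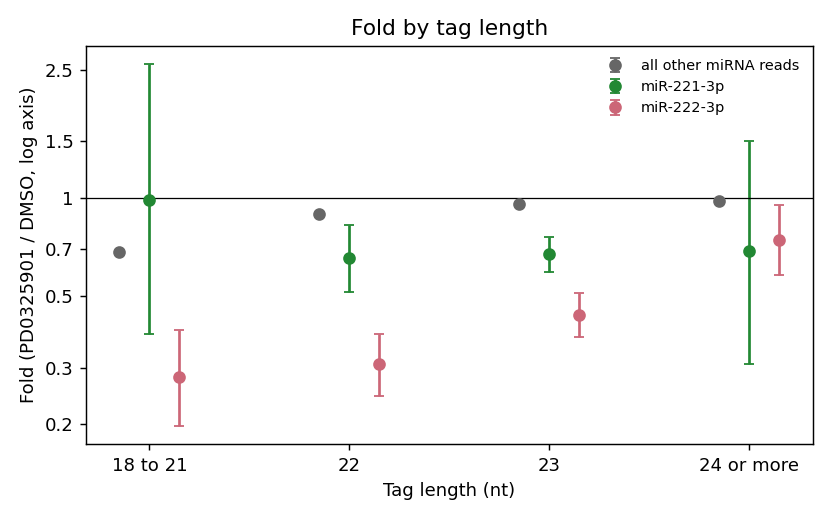
Fold (PD0325901 over DMSO, log axis) by tag length for miR-221-3p, miR-222-3p and all other miRNA reads, with 95% Clopper-Pearson intervals of the reads. miR-222-3p lies below the other miRNA reads at each length, from 0.280 at 18 to 21 nt to 0.746 at 24 nt or more, and miR-221-3p lies between 0.653 and 0.689 at 22 nt and longer, with a wide interval at 18 to 21 nt (10 and 11 reads).

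Tags that end in bases not found in the hairpin, as terminal transferases add them, were counted apart from the members. For miR-222-3p these tailed tags had 54 reads in the control and 26 in the PD library, 4.62% and 4.80% of its reads with tails included. For miR-221-3p they had 57 and 44 reads, 6.75% and 6.96%. Tails of A alone made up 34 and 12 reads of miR-222-3p and 22 and 23 of miR-221-3p, and tails of T alone 8 and 7 reads and 27 and 14 reads. With the tailed tags included the folds were 0.417 for miR-222-3p and 0.674 for miR-221-3p. Reads with a single internal mismatch were few, 7 and 3 for miR-222-3p and 13 and 3 for miR-221-3p, and an A-to-G change accounted for 1 read of each.

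The other denominators moved the folds upward, and those of the 3 detected arms stayed below 1. The rare 5p arm of Mir222, at 0.901 over clean reads, had folds of 1.01 to 1.09 over the others. Over the reads on miRNA hairpins, the fold was 0.478 for miR-222-3p (95% interval 0.429 to 0.531), 0.574 for miR-221-5p (0.315 to 1.02) and 0.771 for miR-221-3p (0.692 to 0.859). Over the clean reads of 20 to 24 nt, it was 0.505, 0.606 and 0.814 in the same order. The TMM and DESeq2 scalings gave 0.465 and 0.468 for miR-222-3p and 0.751 and 0.756 for miR-221-3p. The background moved as well. The number of detected miRNAs at least 1.5-fold below the control was 30 over the miRNA reads and 23 over the reads of 20 to 24 nt, against 70 over all clean reads, and the median log2 fold rose to 0.03 and 0.11. With all reads of both hairpins summed, 1944 in the control and 1128 in the PD library, the pair had a fold of 0.523 (0.485 to 0.563) and went from 0.0891% to 0.0534% of the miRNA reads.

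**Figure D5:**
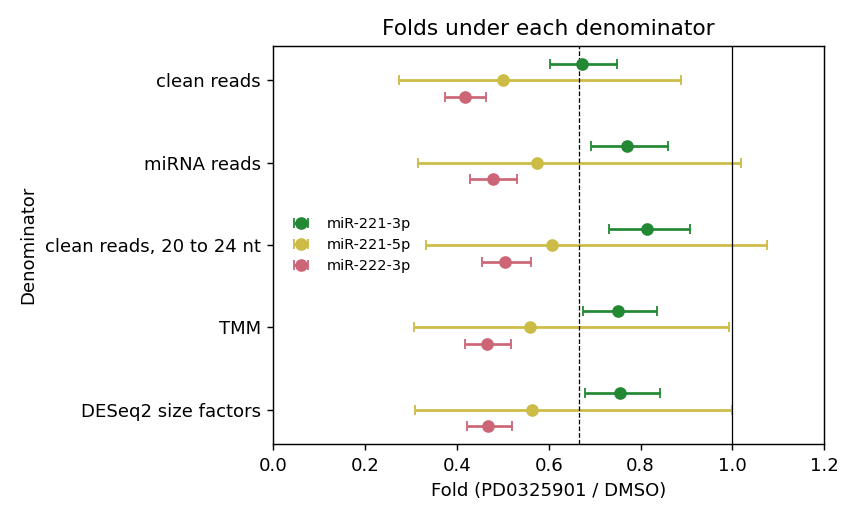
Fold (PD0325901 over DMSO) of the 3 detected arms under each denominator, with 95% intervals of the reads, a solid line at 1 and a dashed line at 1.5-fold below the control. miR-222-3p stays left of the dashed line under all 5 (0.417 to 0.505) and miR-221-3p stays between the lines (0.672 to 0.814).

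The study also assayed some miRNAs by quantitative PCR in independent experiments, and its primers include that of miR-222-3p. The text of the paper gives no PCR value for this miRNA, so the libraries alone are used here. How far the fall of miR-222-3p exceeds the variation between cultures cannot be measured with 1 library each. If that variation is set, without data, to a biological coefficient of variation (BCV) of 0.1, the exact test of edgeR gives an adjusted p of 1.36e-06 for miR-222-3p, 0.0843 for miR-221-3p and 0.192 for miR-221-5p. At a BCV of 0.2 the adjusted p of the exact test is 0.301 for miR-222-3p and 1 for the other two.

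Other miRNAs tied to ERK, AP-1 or related signals were compared as a list of 11 hairpins: Mir21a, an AP-1 target; Mir31, Mir34a and Mir155; Mir132 and Mir212, which CREB induces; Mir143 and Mir145a, which RAS signaling represses; and Mir17, Mir20a and Mir92-1 of a MYC-driven cluster. Of their 22 arms with reads, 15 were detected, with 10 below and 5 above the control, where 67.4% of all detected miRNAs were below. None of the 5 above passed the exact binomial test at an adjusted p of 0.05. The share of all detected miRNAs that passed above the control was not computed. Of the 10 below, miR-17-3p, miR-17-5p, miR-20a-5p, miR-21a-5p, miR-92a-1-5p and miR-92a-3p passed. Below the control, 35.9% of all 516 detected miRNAs passed. The 1.5-fold criterion was met by 2 arms below the control and 1 above it, against backgrounds of 13.6% and 6.4%. The list had a median log2 fold of -0.22, near the -0.17 of all that were detected. The arms below were miR-92a-3p, from 1696 to 1021 RPM (fold 0.602), and miR-212-5p, with 34 and 24 reads (fold 0.636, 95% interval 0.361 to 1.10). The arm above was miR-21a-3p, with 9 and 22 reads (fold 2.20, interval 0.975 to 5.43). The main arm miR-21a-5p went from 557.1 to 514.7 RPM, a fold of 0.924 (0.899 to 0.949). miR-143-3p stood at 101 RPM in both libraries (fold 1.00, 0.943 to 1.07) and miR-31-5p at 25.1 and 26.3 RPM (fold 1.05, 0.923 to 1.18). miR-34a-5p had 422 and 419 reads (fold 0.895, 0.780 to 1.03). Of the MYC-linked arms, miR-17-5p had a fold of 0.840, miR-17-3p 0.711, miR-20a-5p 0.861 and miR-92a-1-5p 0.756, where the median over all detected miRNAs was 0.890. Each was lower than the control over clean reads in the exact binomial test at an adjusted p of 0.00223 or less. The same was true, at an adjusted p under 0.05, of 35.9% of all 516 detected miRNAs. The intervals of all list members with at least 10 RPM lay above that of miR-222-3p.

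The other miRNAs of the X chromosome were spread on both sides of the control. From 88 other hairpins there, 53 arms were detected, and 29 were below and 24 above the control. Their median log2 fold was -0.02, against -0.17 over the 516. At least 1.5-fold below the control were 6 arms and at least 1.5-fold above it 4, again beside backgrounds of 13.6% and 6.4%. Of the 53, 3 also have a hairpin on an autosome (let-7f-5p, miR-19b-3p and miR-92a-3p). The reads of their copies were merged, so these folds are not those of the X chromosome alone. The arms of the miR-465 hairpins share reads. The lowest fold among the arms of this list with at least 10 RPM was that of miR-92a-3p (0.602), which is also in the list above, followed by miR-363-3p of the same seed family, from 147 to 94.3 RPM (fold 0.640, 0.604 to 0.679). Mir363 lies in the Mir106a cluster, whose other arms with at least 10 RPM had folds of 0.719 (miR-18b-5p), 0.799 (miR-92a-2-5p), 0.816 (miR-20b-5p), 0.841 (miR-106a-5p), 0.876 (miR-363-5p) and 1.18 (miR-19b-3p), which is the highest fold at that level. Elsewhere on the chromosome, folds at that level were 0.677 for miR-361-5p, 0.741 for miR-532-3p, 0.793 for miR-676-3p, 0.807 for miR-672-5p and 0.840 for miR-374b-5p. They were 0.998 for miR-532-5p, 1.03 for let-7f-5p, miR-501-3p, miR-503-5p and miR-505-5p, and 1.09 for miR-322-3p.

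The folds nearest to that of miR-222-3p, over 2 libraries only and among miRNAs that reached 10 RPM, were those of miR-6240 (0.480), the 3p arm of the same hairpin (0.359) and miR-540-3p (0.493). Their log2 fold changes differed from that of miR-222-3p by 0.21, 0.22 and 0.24. miR-540-3p had 672 reads in the control and 368 in the PD library. miR-6240 had 696 and 371 reads and the other arm 1304 and 519.

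No mRNA was measured in these libraries, and the following concerns the reference sequence alone. The match to bases 2 to 8 of both 3p arms, ATGTAGC, was searched on the transcript strand in the longest annotated 3′ UTR of each of 20913 protein-coding genes of GENCODE M21. It was present in 9.43% of them, and 3.48% held it followed by A (ATGTAGCA), a context that strengthens repression. Of the genes described as targets of the pair in other cells that are reported here, those with the match followed by A were Cdkn1b, Cdkn1c (the related inhibitor p57), Kit, the proapoptotic Bbc3 and Bmf, Ddit4, an inhibitor of mTOR signaling, and Esr1, the estrogen receptor. In Timp3, which encodes an inhibitor of metalloproteinases, the match was followed by another base. The UTR of Foxo3, a transcription factor, did not hold these letters. The sites of Cdkn1b and Kit are shown, with the match in capitals, because these are the targets most often tied to the pair.
Cdkn1b, exon 2, plus strand, match at chr6:134924431-134924437: ctctaaaagcattggATGTAGCa
Kit, exon 21, plus strand, match at chr5:75654992-75654998: aatgatgggagatatATGTAGCa
Kit, exon 21, plus strand, match at chr5:75656523-75656529: tttgtaaatattgaaATGTAGCa
Since miR-221-3p and miR-222-3p have the same bases 2 to 8, each of these sites matches both. UTRs differ in length (median 956 nt), and longer ones hold more matches. The UTR searched was 3439 nt long for Cdkn1b and 2177 nt for Kit. The genes were listed because they are described as targets of the pair, so their matches cannot be weighed against the shares over all UTRs. A match of these letters does not show that the site is used in J1 mESCs.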

How the data were processed

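Small RNA of J1 mESCs was sequenced as 1 library per treatment, each of RNA pooled from 3 experiments. Per the study's methods, 18 to 30 nt RNA was gel purified and reads under 18 nt, adapters and low-quality reads were removed. The sample labels name an Illumina TruSeq RNA kit instead, and mm9 as genome build. The authors deposited raw counts of clean reads for each distinct tag of 18 to 44 nt, without alignment or normalization. The row with each library's total was left out.

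Tags were matched perfectly to 1174 miRNA hairpins of GENCODE M21 (GRCm38) with Python 3.11.15, and arms were separated by folding with ViennaRNA 2.7.2. On each arm, tags that shared at least 16 nt with the most frequent tag were counted. miRNAs were named by RefSeq where it held an entry, and hairpin copies of the same name were merged. A miRNA was detected at 1 RPM in either library (516 miRNAs). The fold was that of RPM, with 0.01 RPM in place of 0, and 1.5-fold was the criterion for a call. Reads were compared by exact binomial tests with Benjamini-Hochberg adjustment and by Fisher's exact tests (SciPy 1.17.1). Without replicates, neither edgeR's quasi-likelihood test nor the DESeq2 model could be used. The edgeR 4.0.16 exact test at a set BCV and the size factors of DESeq2 1.42.0 (R 4.3.3) were alternatives, as were other tags counted, denominators, filters and a 2-fold threshold. Intervals and the 3-read floor cover counting error only. The steps were tested on simulated data.

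The members, lists and target genes were chosen with earlier results of these data known. An item of the target list is not reported here. The text names both arms of each hairpin, miRNAs of the same seed, the 3 miRNAs of at least 10 RPM with the nearest fold, and arms of the fixed lists, mainly those of at least 10 RPM.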

Additional observations from a re-analysis of the deposited data

How the results depend on the processing

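Filters on level or reads, the 2-fold threshold and edgeR's exact test leave the fold of an arm as it is. So did the limit to tags of a single hairpin, which all 37 tags met. These alternatives could not turn a direction. With them included, the fall of miR-222-3p kept its direction under all 19 alternatives (fold 0.416 to 0.746). It was short of 1.5-fold when tags under 24 nt were left out (0.746, from 145 and 120 reads, an alternative chosen after seeing the data), and at a BCV of 0.2 in edgeR's exact test its fold (0.417) no longer passed (adjusted p = 0.301). miR-221-3p stayed below the control and short of 1.5-fold under all 19 (0.671 to 0.814). miR-221-5p (0.501) lost its call at a 2-fold threshold and in edgeR's exact test at either BCV (adjusted p = 0.192 and 1). Its adjusted p in the exact binomial test was also over 0.05 with tags of the leading start (0.0602), tags of at least 2 reads (0.0608), tailed tags (0.0550), miRNA reads (0.101) or reads of 20 to 24 nt (0.155) as denominator, and no filter (0.0807). The fold of the pair (0.523) missed a 2-fold threshold. The ratio of the 3p folds lay between 0.619 and 0.65 under 6 other ways of counting tags. It was 0.755 over tags of 23 nt or more and turned to 1.08 (Fisher's exact test, p = 1) over those of 24 nt or more, both added after seeing the data. The number of detected miRNAs below the control by 1.5-fold, 70, became 30 over miRNA reads, 23 over clean reads of 20 to 24 nt, 34 with TMM and 34 with DESeq2 size factors. Of the miRNAs called either way, 68.0% were below the control over clean reads, 36.1% over miRNA reads, 26.1% over reads of 20 to 24 nt, 43.6% with TMM and 42.0% with DESeq2 size factors. The number below was 299 without a filter, 27 at 10 RPM or more, 16 at 2-fold, and 29 and 1 in edgeR's exact test at a BCV of 0.1 and 0.2. The rare 5p arm of Mir222 and tags under 4 reads gave no fold where counts were at or under 3. With 1 library per treatment no replicate could be left out. No paired analysis was possible because each treatment had a single library.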
